A study of Mus musculus with 6 samples.

Results

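The 10 genes described here belong to the unfolded protein response, the programme by which a cell adjusts its endoplasmic reticulum (ER) to the load of proteins entering it. They were chosen by name: Hspa5, Hsp90b1, Calr, Pdia4, Pdia6, Edem1, Herpud1, Xbp1, Atf4 and Ddit3. All 10 were on the array, read by 16 of its 41174 non-control probes, and all 10 were among the 18210 genes tested. Expression was measured in primary megakaryocytes, the cells that shed platelets, grown in culture from mouse fetal livers at E13.5 (days of embryonic development) on the C57BL/6 background. The p45-/- group (3 samples) lacked p45, the larger of the NF-E2 subunits and the product of Nfe2, and the WT group (3 samples) was wild type, with no other allele or agent named for either group. The labels give fetal liver cultures as the source but whole embryos in the extraction text, and this contradiction is not resolved. The series text speaks of 3 independent experiments, and nothing more is given on the embryos behind each culture, so p-values measure the spread between these samples.

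In the unfolded protein response, 3 sensors in the ER membrane (IRE1, PERK and ATF6) detect unfolded protein. IRE1 splices the Xbp1 transcript, ATF6 is cut to release a transcription factor, and PERK slows translation while favouring that of Atf4. The XBP1 and ATF6 branches are known to raise ER chaperones and degradation factors, and ATF4 raises amino acid metabolism genes and Ddit3. Megakaryocytes fold large amounts of membrane receptors and granule proteins in the ER before platelets are released.

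A level is the log2 of the processed spot intensity minus the array's 75th percentile, so 0 is that percentile, and a difference is the p45-/- mean minus the WT mean on this scale. The 75th percentile of intensity was 135 on p45-/- array 1 and 339 to 589 on the other 5 arrays. Array 1 of p45-/- stood apart: across genes, which are not independent replicates, it correlated with the others at 0.782 to 0.884, and these with each other at 0.941 to 0.984. All 16 probes were well above background on all 6 arrays, and no spot was saturated. All 10 megakaryocyte markers were also well above background on all 6 arrays. The level of Nfe2 itself was 6.05 ± 0.71 (SD, n = 3) in WT cultures and 5.88 ± 0.88 (SD, n = 3) in p45-/- cultures. Its probe's position relative to the deleted part is not known here, so it does not check the genotype, and directions refer to the arrays labelled p45-/-.

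The 10 genes had lower mean levels in the p45-/- arrays than in the WT arrays, except that Atf4 and Herpud1 were higher with quantile normalization (0.086 and 0.016). The differences ran from -1.16 for Edem1 to -0.17 for Atf4 with a median of -0.55, while the median of all genes tested was -0.048 and 53.5% of all genes were lower. With quantile normalization these medians were -0.28 and -0.026, and with median scaling -1.07 and -0.56. The mean level of the 10 genes was 3.3 to 4.4 over the 6 arrays, and that of all genes -0.49 to -0.05. All genes are therefore not a background of like level. None of the 10, and 0 of their 16 probes, passed limma's test at an adjusted p of 0.05, with or without the replicate number as a block. In that test 0 genes of the whole table passed (0%), and with the block 5 genes (0.0275%) passed as lower and 0 as higher. Of all probes 0 passed, and with the block 73 (0.305%). At an unadjusted p under 0.05, 1 of the 10 (Edem1) was lower, against 3.33% of all genes, and with the block 2 (Edem1 and Pdia4), against 5.96%. Every p45-/- array was below every WT array for 1 of the 10 (Edem1), against 8.43% of all genes, and the reverse held for 0, against 4.77%. In these bulk cultures, fewer cells of a type and less RNA per cell cannot be told apart.

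**Figure D1:**
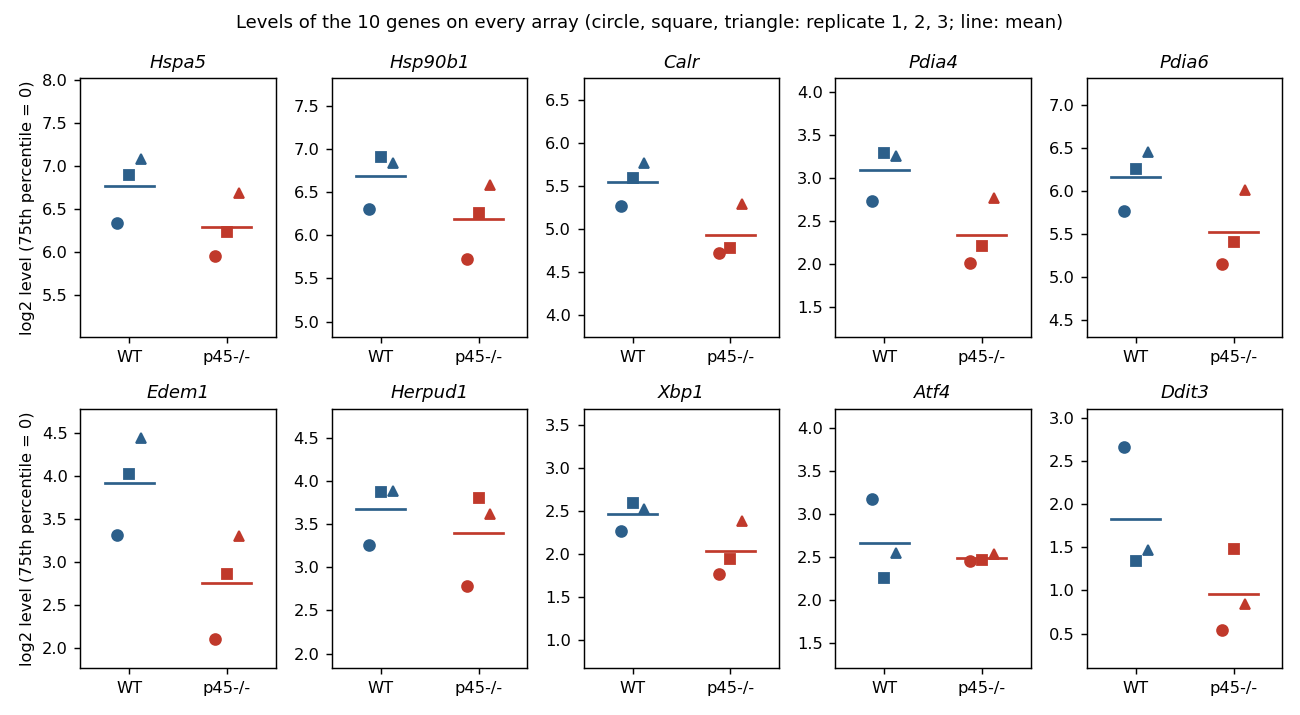
Log2 level of each of the 10 genes on every array (vertical axis, 0 at the array's 75th percentile, every panel spanning the same range) in WT and p45-/-, with symbols for the replicate number and a line at the mean of 3 arrays. Replicate 1 is the lowest WT array for 8 genes and the highest for Atf4 and Ddit3, and the groups are separate for Edem1 alone.

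The ER chaperones Hspa5, Hsp90b1 and Calr lay 0.48 to 0.61 log2 units below WT in mean, a difference that did not pass the test for any of them. Hspa5 encodes BiP, the Hsp70 chaperone of the ER lumen that also holds the sensors inactive. Its levels were 5.95, 6.23 and 6.69 in p45-/- (here and below in the order of replicates 1, 2 and 3) and 6.34, 6.90 and 7.08 in WT. The first 2 p45-/- arrays were below all WT arrays, and the remaining p45-/- array was above WT array 1. Hspa5 thus differed by -0.48 (SE 0.35, 95% interval -1.31 to 0.36, adjusted p = 0.704 by limma, as for all adjusted p below). It was -0.31 without p45-/- replicate 1, -0.24 with quantile normalization and -0.74 with normexp background correction.

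Hsp90b1 encodes GRP94, the ER member of the Hsp90 family, which folds integrins and Toll-like receptors. Its brighter probe read 5.73, 6.26 and 6.59 in p45-/- and 6.31, 6.91 and 6.84 in WT, giving -0.50 (SE 0.35, adjusted p = 0.704). This was -0.27 without p45-/- replicate 1 and -0.23 with quantile normalization. Its other probe gave -0.64 from 2.93, 3.53 and 4.18 in p45-/- and 3.59, 4.34 and 4.62 in WT. On both probes p45-/- arrays 1 and 2 lay below every WT array, and p45-/- array 3 lay between WT array 1 and the other WT arrays.

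Calr encodes calreticulin, a lectin chaperone that binds newly made glycoproteins and ER calcium. Its brighter probe read 4.73, 4.78 and 5.29 in p45-/- and 5.26, 5.59 and 5.77 in WT, a difference of -0.61 (SE 0.31, 95% interval -1.36 to 0.13, adjusted p = 0.704) that was -0.32 with quantile normalization. The groups overlapped by a single pair of arrays, p45-/- array 3 and WT array 1. On the dimmer Calr probe the groups did not overlap, with 1.08, 0.92 and 1.40 in p45-/- against 1.41, 1.62 and 1.84 in WT, and the difference was -0.49 (SE 0.29).

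The disulphide isomerases, enzymes that form and rearrange disulphide bonds in the ER, had mean differences of -0.76 (Pdia4) and -0.64 (Pdia6). Pdia4 (ERp72) read 2.02, 2.21 and 2.77 in p45-/- and 2.73, 3.29 and 3.26 in WT. Its p45-/- arrays were all lower than WT arrays 2 and 3, and p45-/- array 3 was barely above WT array 1. Pdia4 thus differed by -0.76 (SE 0.34, 95% interval -1.57 to 0.049, unadjusted p = 0.0616, adjusted p = 0.704), a 1.69-fold lower mean, and by -0.50 with quantile normalization. With the replicate block the unadjusted p was 0.0414 and the adjusted p 0.224.

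Pdia6 (P5) was read by 3 probes with differences of -0.64, -0.53 and -1.19. The brightest read 5.16, 5.40 and 6.01 in p45-/- and 5.76, 6.25 and 6.46 in WT (SE 0.36, adjusted p = 0.704), and its difference was -0.40 with quantile normalization. The probe with the largest difference read 0.45, -0.56 and 1.40 in p45-/- and 1.16, 1.70 and 2.00 in WT. That p45-/- array 2 value of -0.56 had no counterpart on the other 2 probes, where array 2 lay between arrays 1 and 3.

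Edem1 had the largest mean difference of the 10 genes. It encodes a lectin of the ER that directs misfolded glycoproteins to degradation, and is known as a target of XBP1. Its brightest probe read 2.11, 2.86 and 3.30 in p45-/- and 3.31, 4.02 and 4.44 in WT. The groups did not overlap, but the highest p45-/- array and the lowest WT array were nearly level. The difference was -1.16 (SE 0.45, 95% interval -2.24 to -0.083), a 2.24-fold lower mean, with an unadjusted p of 0.0386, a limma adjusted p of 0.704, and 0.1 in the exact two-sided permutation test, the smallest p that 3 arrays against 3 allow. This difference was -0.89 with quantile normalization and -0.84 without p45-/- replicate 1.

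Between same-numbered arrays Edem1 differed by -1.20, -1.16 and -1.13 for numbers 1, 2 and 3. On the other 2 probes the same pairs were less even, at -1.10, -0.69 and -1.35 on the middle one and -0.62, -1.13 and -1.42 on the dimmest. With the replicate number as a block the standard error was 0.28 and the unadjusted p 0.00568, and the adjusted p was 0.128. The other 2 Edem1 probes gave -1.05 and -1.06, and on both of them the groups overlapped. The middle probe read 1.11, 2.62 and 2.62 in p45-/- and 2.21, 3.30 and 3.97 in WT. The dimmest read -2.79, -1.75 and -1.40 in p45-/- and -2.17, -0.61 and 0.024 in WT.

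Herpud1, a membrane protein that helps assemble the ER degradation machinery, differed little. It read 2.79, 3.81 and 3.62 in p45-/- and 3.25, 3.88 and 3.88 in WT. Arrays 2 and 3 of p45-/- lay above WT array 1 and just below the other WT arrays. The difference was -0.27 (SE 0.39, 95% interval -1.20 to 0.66, adjusted p = 0.817). It was 0.040 without p45-/- replicate 1.

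**Figure D2:**
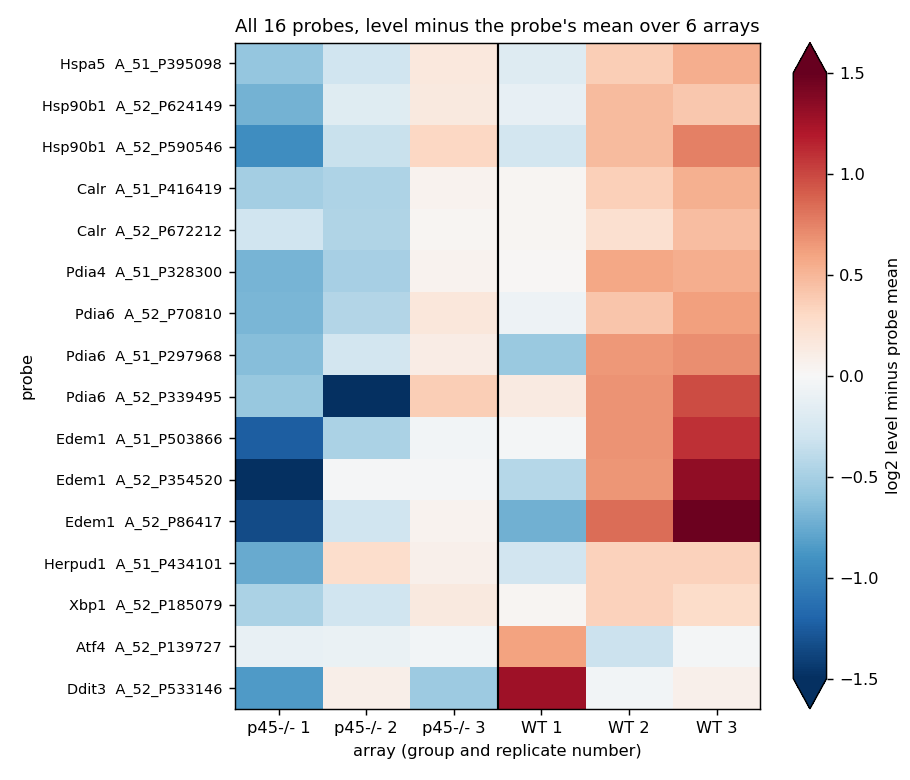
All 16 probes of the 10 genes (rows) on the 6 arrays (columns), coloured by log2 level minus the probe's mean over the arrays. In the rows of the folding and degradation genes blue gathers mostly on p45-/- arrays 1 and 2 and red on WT arrays 2 and 3, while Atf4 and Ddit3 are reddest on WT array 1; 14 of the 16 probes were lower in p45-/- in every same-numbered pair.

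Among the transcription factors, Xbp1 followed the chaperones while Atf4 and Ddit3 had another order of arrays. Xbp1 encodes the factor that IRE1 activates by splicing, and the files do not say whether its single probe separates spliced from unspliced transcript. It read 1.77, 1.94 and 2.39 in p45-/- and 2.27, 2.59 and 2.52 in WT. Only p45-/- array 3 reached the range of the WT arrays, and the difference was -0.43 (SE 0.30, 95% interval -1.14 to 0.29, adjusted p = 0.704), or -0.20 with quantile normalization.

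Atf4, the effector of PERK and of the other eIF2 alpha kinases, is regulated largely at translation, which these arrays do not measure. It read 2.46, 2.47 and 2.54 in p45-/- and 3.18, 2.25 and 2.55 in WT. The p45-/- arrays were nearly equal and lay inside the WT range. The difference was -0.17 (SE 0.33, 95% interval -0.96 to 0.62, adjusted p = 0.865) and was 0.088 without WT replicate 1.

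Ddit3 encodes CHOP, a factor of the ATF4 branch known for its part in stress-induced cell death. It read 0.54, 1.48 and 0.85 in p45-/- and 2.66, 1.35 and 1.47 in WT. WT array 1 stood more than 1 log2 unit above the other WT arrays, and p45-/- array 2 was above both of these. The difference was -0.87 (SE 0.47, 95% interval -1.99 to 0.24, adjusted p = 0.704), -0.45 without WT replicate 1 and -0.35 with array weights. Same-numbered arrays differed by -2.12, 0.13 and -0.63, the widest spread of any of the 10 genes.

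**Figure D3:**
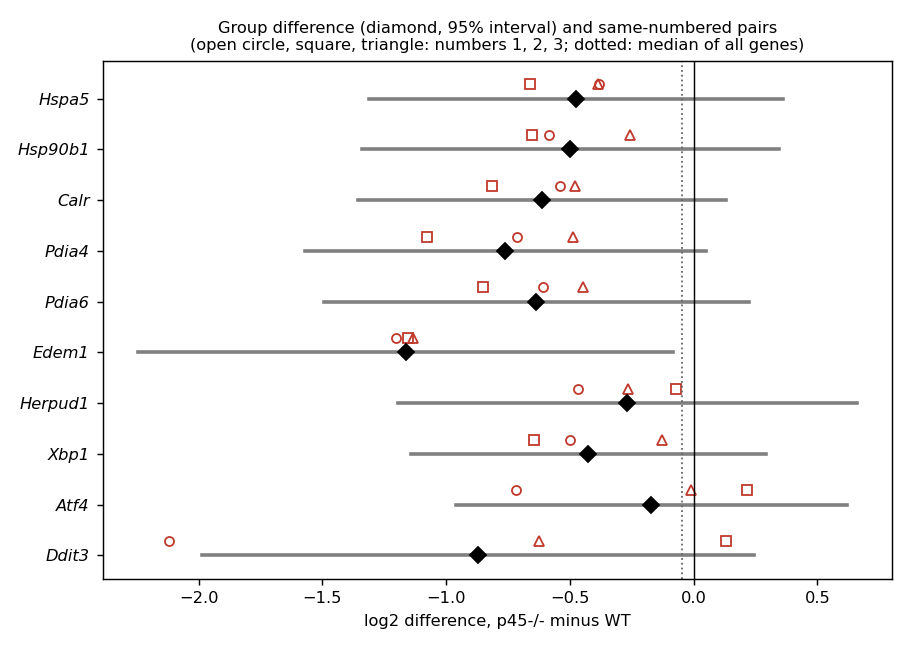
Log2 difference between p45-/- and WT (horizontal axis) for each gene, as the group difference with its 95% interval from limma (diamond and bar) and as the differences of same-numbered arrays (open symbols). For 9 genes the interval holds 0; the 3 open symbols of Edem1 almost coincide on the probe plotted, those of Ddit3 run from -2.12 to 0.13, and Atf4 and Herpud1 have group differences above 0 with quantile normalization.

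The order of the arrays was shared by most of the 10 genes. For 9 of them the lowest array was p45-/- array 1, and for 8 WT array 1 was the lowest of the WT arrays. Array 3 of p45-/- lay above WT array 1 for 7 genes, above WT array 2 for 1 and above WT array 3 for 0. Arrays 1 and 2 of p45-/- were below every WT array for 7 genes. Of these, Edem1 had no overlap, and for the other 6 the overlap was that of p45-/- array 3 with WT array 1. The shares of all genes with these orders are not given here, so the orders are not shown to be particular to the 10 genes. Over all genes, the median deviation from the gene's own mean was -0.31 on p45-/- array 1, 0.072 on p45-/- array 2 and 0.023 on p45-/- array 3. The mean of the 10 genes, each centred on its own mean, was -0.66, -0.24 and 0.019 in p45-/- and 0.12, 0.32 and 0.44 in WT.

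Same-numbered arrays showed the order more closely. Of the 10 genes, 8 were lower in p45-/- in all 3 same-numbered pairs, against 23.6% of all genes, and 0 were higher in all 3, against 23.3%. The exceptions were Atf4 and Ddit3, which were higher in p45-/- in the pair with number 2. The median over the 10 genes was -0.60, -0.66 and -0.42 in pairs 1, 2 and 3, where the median of all genes was -0.37, 0.12 and 0.064. Replicate 3 of both groups lay on a slide of its own, and the other 4 arrays shared a slide. Within the shared slide the median of the 10 genes was -0.65 and within the other, with 1 array per group, -0.42. For the 7 folding and degradation genes the mean centred level was -0.74, -0.30 and 0.090 in p45-/- and -0.096, 0.46 and 0.58 in WT. For Atf4 and Ddit3 it was -0.48, -0.0083 and -0.29 in p45-/- and 0.94, -0.18 and 0.027 in WT, so WT array 1 was the lowest WT array of one set and the highest of the other.

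Pearson's r between pairs of the 10 genes, over 6 arrays that share these array effects, ran from -0.341 to 0.987 with a median of 0.784. Without p45-/- array 1 they ran from -0.921 to 0.981 with a median of 0.611. Against the mean of all 10, which includes the gene itself, r was 0.918 to 0.980 for Hspa5, Hsp90b1, Calr, Pdia4, Pdia6, Edem1 and Xbp1, and 0.836 to 0.985 without p45-/- array 1. It was 0.75 for Herpud1, 0.484 for Ddit3 and 0.0956 for Atf4, and without that array 0.226, 0.0473 and -0.0824. For likeness to the mean of the 10 over the 6 arrays, only genes with a symbol were ranked (12949 of the 18210 tested). Outside the 10, the most alike of these were Cnnm4 (r = 0.999), Prdx4 (0.996), Pik3r1 (0.995), Irak1 (0.994) and Fbxl12 (0.994), each with Spearman's rho of 1. Prdx4 encodes the peroxiredoxin of the ER, Pik3r1 a regulatory subunit of PI 3-kinase, and Irak1 a kinase downstream of interleukin 1 and Toll-like receptors. Over the 6 arrays r was above 0.9 for 1009 genes (5.54% of those tested), and without p45-/- array 1 for 488 (2.68%).

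The ER stress element, the sequence through which ATF6 is known to act together with NF-Y, was looked for because the chaperone genes shared an order of arrays. Promoter windows of 250 bases before to 50 bases after the start site came from RefSeq (GRCm38.p6), and all 10 genes had 1. The element was spelled CCAAT and CCACG separated by 9 bases, and the related ERSE-II as ATTGG and CCACG separated by 1 base, each read on both strands. The ER stress element was found in the windows of 4 of the 10 genes, Hspa5, Pdia6, Hsp90b1 and Calr, and in 0.119% of the 32851 windows in the table. ERSE-II was found at Herpud1 and in 0.0365% of all windows. Because the 10 genes were chosen by name as genes of this response, these shares describe that choice. They are not a result of the arrays. The stretches that hold them follow in the direction of the gene, with the elements in capitals. At Calr, and at the second Hsp90b1 element, the element is on the opposite strand and therefore reads CGTGG first and ATTGG last.
Hspa5: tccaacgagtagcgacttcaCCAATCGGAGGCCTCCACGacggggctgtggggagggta
Pdia6: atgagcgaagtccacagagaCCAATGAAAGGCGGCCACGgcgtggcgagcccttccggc
Hsp90b1: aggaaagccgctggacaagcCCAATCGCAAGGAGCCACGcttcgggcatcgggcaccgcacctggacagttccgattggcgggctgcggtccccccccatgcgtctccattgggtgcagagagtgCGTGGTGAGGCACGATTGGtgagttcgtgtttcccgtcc
Calr: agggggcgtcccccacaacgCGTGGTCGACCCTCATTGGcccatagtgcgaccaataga
Herpud1: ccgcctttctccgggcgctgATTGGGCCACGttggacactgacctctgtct

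On GRCm38.p6 these stretches lie at chr2:34772005-34772063 (plus strand, Hspa5), chr12:17266471-17266529 (plus, Pdia6), chr10:86705513-86705676 (minus, Hsp90b1), chr8:84847055-84847113 (minus, Calr) and chr8:94386357-94386407 (plus, Herpud1). The element ran from base -65 to -47 before the start site at Hspa5, from -98 to -80 at Pdia6 and from -162 to -144 at Calr. At Hsp90b1 the elements ran from -212 to -194 and from -107 to -89, and at Herpud1 ERSE-II ran from -52 to -42. The 4 genes with an ER stress element had differences of -0.48, -0.64, -0.50 and -0.61, and Herpud1 with ERSE-II had -0.27. The windows of Edem1, Ddit3 and Pdia4, which had larger mean differences than these genes, held no match to either spelling. Those of Xbp1 and Atf4, with smaller mean differences than the 4 genes with an ER stress element, held none either. The Edem1 window lies around a start site 4596 bases inside the outermost annotated start of the gene, which was not searched, and for the other 9 genes the start sites are the same.

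Other motifs were searched in the same windows on both strands. The unfolded protein response element TGACGTGG, the CRE TGACGTCA and the NF-E2 core GCTGAGTCA matched 0 of the 10 windows, and 0.676%, 1.79% and 0.454% of all windows. The ATF4 composite element, spelled TTNCATCA, matched at Herpud1 from -112 to -105 and in 3.97% of all windows. The other spelling of the NF-E2 core, GCTGACTCA, searched after the windows had been seen, matched at Hspa5 from -182 to -174 on the opposite strand and in 0.414% of all windows. A match is a description of these letters, and its absence says nothing of distant sites.

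Further genes of the pathway were read from 6 lists with 130 entries, of which 127 were tested, and 0 of them passed limma's test in either direction, with or without the block. At an unadjusted p under 0.05 there were 4 lower and 0 higher, against 3.33% and 2.62% of all genes, so the count of lower genes was near the background. Every p45-/- array was below every WT array for 12 of the 127, near the 8.43% of all genes. The reverse held for 1, against 4.77% of all genes. Of the 127, 104 were lower in mean with a median of -0.28, but with quantile normalization 76 were lower with a median of -0.051. Between same-numbered arrays the median of the 127 was -0.57, -0.11 and -0.092 for numbers 1, 2 and 3. Beside the 10 genes' median of -0.55 the ER chaperone and folding list had the lowest, -0.41, with 20 of 22 lower. It held 20 lower with quantile normalization too. Fkbp2, an ER prolyl isomerase, had a difference of -0.87 (SE 0.38, adjusted p = 0.704), and -0.56 with quantile normalization. Ero1a, the oxidase that recharges disulphide isomerases, had -0.70 (SE 0.34, adjusted p = 0.704), with levels of 0.40, 1.14 and 1.37 in p45-/- below 1.64, 1.75 and 1.62 in WT.

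In ER-associated degradation all 22 genes were lower in mean (17 with quantile normalization), with a median of -0.33. Herpud2, a relative of Herpud1, read 0.42, 0.76 and 0.54 in p45-/- and 1.21, 1.31 and 1.51 in WT, a difference of -0.77 (SE 0.27, unadjusted p = 0.0269, adjusted p = 0.704). Rnf139, an ER ubiquitin ligase, had -0.84 (SE 0.34, unadjusted p = 0.0455, adjusted p = 0.704). For both genes the groups did not overlap. The translocon and signal peptide list had a median of -0.30 with 26 of 28 lower in mean, and with quantile normalization 17 were lower with a median of -0.019. Sec11c, a catalytic subunit of signal peptidase, had -1.24 (SE 0.57), and its same-numbered arrays differed by -1.22, -1.14 and -1.36. Stt3a, a catalytic subunit of oligosaccharyltransferase, had -0.70 (SE 0.39).

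The sensor and signalling list was lower in mean for 11 of 11 genes (9 with quantile normalization or with normexp), with a median of -0.25. Between same-numbered arrays its median was -0.63, -0.12 and 0.016 for numbers 1, 2 and 3, where the median of all genes was -0.37, 0.12 and 0.064. Tmbim6, an ER membrane protein known to restrain IRE1, read 4.15, 4.80 and 4.70 in p45-/- and 5.18, 5.16 and 5.08 in WT, a difference of -0.59 (SE 0.30, adjusted p = 0.704) that was -0.24 with quantile normalization. Map3k5, the kinase ASK1 downstream of IRE1, had -0.79 (SE 0.42). The genes of the sensors themselves, chosen after their values were seen, had -0.65 for Atf6, -0.17 for Eif2ak3 (PERK) and -0.058 for Ern1 (IRE1), which had 0.14 with normexp.

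The integrated stress response list, which holds eIF2 alpha kinases beside targets of ATF4, did not lean to a side in the main comparison. In it 12 genes were lower and 12 higher, and the median was -0.013. The side depended on the scaling, with 17 higher with quantile normalization and 16 lower with normexp background correction. With median scaling 22 were lower with a median of -0.52, where all genes had -0.56. Between same-numbered arrays the list's median was -0.52, 0.28 and 0.16 for numbers 1, 2 and 3. Cebpb, a bZIP factor that dimerises with CHOP, read 2.51, 1.22 and 1.70 in p45-/- and 3.91, 3.09 and 2.87 in WT. The groups did not overlap, and the difference was -1.48 (SE 0.46, unadjusted p = 0.0157, adjusted p = 0.679). Slc7a11, the cystine transporter subunit, had -1.38 (SE 0.55, unadjusted p = 0.0433, adjusted p = 0.704) at a level far below the 75th percentile, and with normexp background correction it had -0.21. Its probe passed the filter only through the WT arrays, since 1 of the 3 p45-/- arrays did not read it well above background. On the other side Asns, Phgdh and Mthfd2, enzymes of amino acid and one-carbon metabolism chosen after their values were seen, had 0.46, 0.53 and 0.52, and with median scaling -0.049, 0.020 and 0.0048.

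Cytosolic heat shock genes, which respond to misfolding outside the ER, had a median of -0.12 with 13 of 20 lower, and 14 of 20 were higher with quantile normalization. Bag3, a partner of Hsp70, had -0.61 (SE 0.38), and Stip1, which links Hsp70 to Hsp90, had -0.29 (SE 0.31). With quantile normalization these were -0.39 and -0.028. Whether the 10 genes differed from these lists was not tested.

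**Figure D4:**
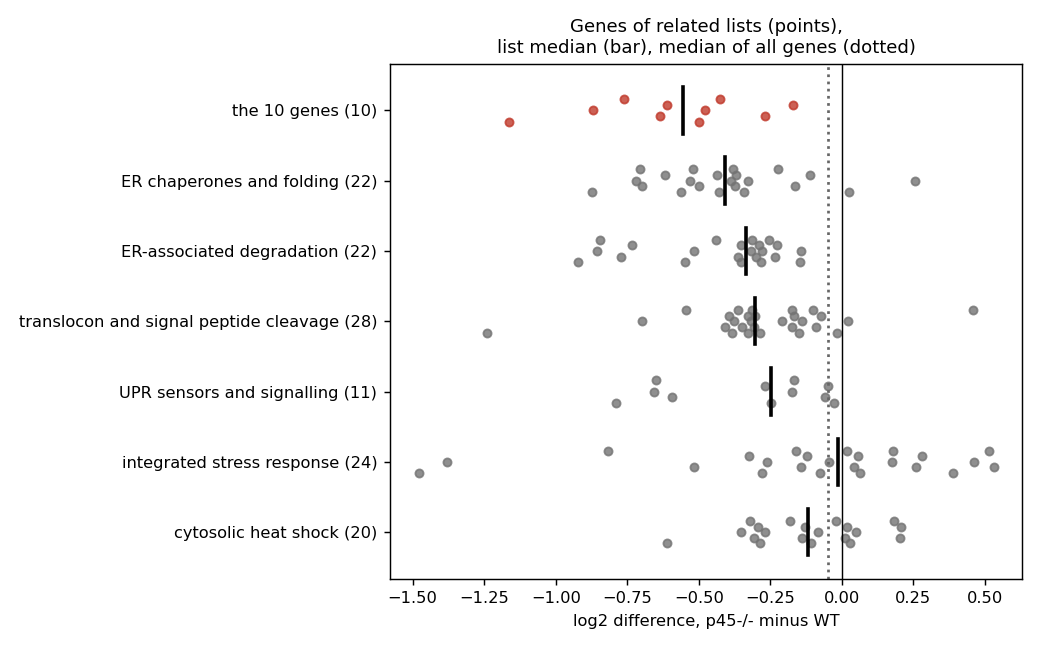
Log2 difference between p45-/- and WT of the tested genes of each list (points), with the number tested in brackets, the list's median (bar) and the median of all genes (dotted line). Medians run from -0.55 for the 10 genes to -0.013 for the integrated stress response, and with quantile normalization the medians of the integrated stress response and cytosolic heat shock lists are above 0.

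Of the marker lists, 0 genes passed limma's test in either direction, with or without the block, and the levels that follow are a description. The mean level of 14 erythroid markers was 0.41 to 1.77 in p45-/- and -1.25 to 0.14 in WT, and 13 of the 14 had a higher mean in p45-/-. That of 8 hepatoblast and hepatocyte markers was 0.58 to 2.20 in p45-/- and -0.17 to 0.88 in WT, and all 8 had a higher mean (7 with median scaling), although their median difference between the arrays numbered 1 was -0.17, while 2 more on the array did not pass the filter on dim probes and were not tested. For 9 neutrophil and myeloid progenitor markers it was 4.02 to 4.81 in p45-/- and 4.49 to 5.54 in WT, and all 9 had a lower mean. For 10 megakaryocyte markers it was 4.97 to 6.64 in p45-/- and 5.51 to 6.78 in WT. Of these, 8 had a lower mean (6 with quantile normalization), and the median difference was -0.33. For 10 stromal markers the mean level was -1.15 to 0.44 in p45-/- and -1.20 to -0.35 in WT. All 10 had a higher mean (9 with quantile normalization, 6 with median scaling), although their median difference between the arrays numbered 1 was -0.80. Macrophage markers ran from 2.53 to 3.03 against 1.98 to 2.93, mast cell and basophil markers from -1.52 to -0.33 against -1.45 to 0.17, and endothelial markers from -1.82 to -1.55 against -1.88 to -1.58. Every marker on the array was well above background on 1 array or more. Among the other lists, Timd4 (macrophage) and Tpsb2 (mast cell) passed the filter only through the p45-/- arrays. Pdgfra (stromal), Ms4a2 (mast cell) and Lyve1 (endothelial) passed it only through the WT arrays. The part of these differences in the levels of the 10 genes was not tested.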

How the data were processed

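Total RNA (500 ng) was labelled with Cy3 and hybridised to single-colour Agilent arrays, per the labels' protocols. Per the file headers, the deposited intensities come from version 10.7.3.1 of Agilent Feature Extraction (10.1 per the submitters' processing notes), background-subtracted and detrended within each array, and not scaled between arrays. The deposited value table holds these intensities to within 0.497%. From these, log2 values were taken, flagged spots (32 to 80 per array) left out, spots of a probe averaged and the 75th percentile of non-control probes subtracted. Probes well above background on all arrays of 1 group were kept (23957), and each gene was represented by its brightest probe. Symbols came from RefSeq accessions (GRCm38.p6, 26690 probes). Groups were compared with limma 3.58.1 in R 4.3.3, with no block and Benjamini-Hochberg adjustment over 18210 genes, after a check on simulated data. The check required changes to be recovered only at a spread smaller than that of these arrays. It therefore does not show which changes this fit can find here. SE and intervals are limma's. The number of arrays limits the precision. The members and lists were chosen with earlier results of these data known. Named genes were Nfe2, the 10 genes, of each list the 2 with the smallest unadjusted p, and the 5 most alike. The percentile was first taken over spots; it was changed to averaged probes, the planned setting, after the calls with the block had been compared with an earlier count on these data. The files hold no mean spot signal, so normexp used median signals.

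Replicate numbers 1 to 3 occur in both groups. The correlation of deviations from the group means between the arrays of a number was 0.647 (number 1), 0.589 (number 2) and 0.270 (number 3). All were over 0.1, so same-numbered arrays were also compared as pairs and the number was used as a block in an alternative fit. SE, intervals and p-values given without mention of the block come from the main fit, which ignores the numbers. The labels do not state a pairing, and p45-/- array 3 correlated more with WT array 2 (0.616).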

Additional observations from a re-analysis of the deposited data

How the results depend on the processing

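The median of the 10 genes was -0.55 in the comparison as reported. Quantile normalization gave -0.28; median scaling gave -1.07, where all genes had a median of -0.56, and the cause was not tested. It ran from -0.74 to -0.38 when single replicates were left out. Their probes and the list genes, run with the block, with quantile normalization and without replicate 1 of both groups, gave 0 calls. Of the 10 genes 0 passed under any alternative except Edem1 (1 gene) with the replicate block and median scaling together, added after seeing the data, at -1.68 (adjusted p = 0.0185; over its alternatives 0.0185 to 0.998). Over all genes 5 passed with the replicate block, 10 with median scaling, 1 with a trended prior, 504 with array weights (0.0979 for p45-/- array 1), 18 without replicate 1 of both groups, 1589 with the block and median scaling, 0 with the block and quantile normalization and 0 with the block without replicate number 1; leaving out single replicates gave 0 to 1. Taking the percentile over spots instead of averaged probes, tried first and listed after seeing the data, gave 1 call with the block in place of 5, and 0 without it, with a median of -0.54 for the 10 genes. The block changed no call of the 10 genes. Atf4 (-0.37 to 0.088 when single replicates were left out) reversed to 0.086 with quantile normalization, 0.088 without WT replicate 1 and 0.10 without replicate 1 of both groups, with or without the block. Herpud1 (-0.48 to 0.040) reversed to 0.016 with quantile normalization and 0.040 without p45-/- replicate 1. The other 8 genes kept their direction under every alternative run. All 16 probes had signal well above background on every array.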
